A study of Prunus persica with 8 samples.

Results

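The genes described here are 3 peach genes on chromosome 2 (Pp02), Prupe.2G048700, Prupe.2G092500 and Prupe.2G093000, out of 26873 genes with values in the deposited table. They were chosen by name because the study's list of genes differing between pillar and standard trees matches each of them to PR5K (AT5G38280), an Arabidopsis PR5-like receptor kinase. The study built that list from the same 8 trees, so the differences between growth habits at these genes are given as a description and carry no test. The list matches 5 genes to PR5K, and the remaining pair, Prupe.2G092800 and Prupe.2G093300, is set beside the 3 wherever they bear on position. In pillar trees Prupe.2G048700 was lower than in standard trees, and Prupe.2G092500 and Prupe.2G093000 were higher.

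PR5K of Arabidopsis is a receptor-like serine/threonine kinase that spans the cell membrane. Its outer domain resembles PR5, a thaumatin-like pathogenesis-related protein that plants secrete during defence, and its inner domain is a protein kinase. Receptor-like kinases of this kind form large families in which close copies often lie next to each other on a chromosome, and many of them are studied for a part in responses to microbes.

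Pillar peach trees have narrow, upright branches, a habit caused by mutant alleles of TAC1 (tiller angle control 1), a gene that promotes wide branch angles. Shoot tips of field-grown mature trees, 4 of pillar and 4 of standard habit and all without treatment, were profiled by RNA-seq of total RNA. All came from 1 segregating F2 population raised by selfing KV991636, a tree heterozygous for the trait, in which pillar trees are homozygous for the mutant allele (tac1/tac1) and standard trees for the functional one, as the study's methods state for its measured trees. In the labels the pillar trees are numbered 4, 7, 8 and 10, the standard trees are numbered 7, 8, 9 and 10, each tree gave 1 library, and the standard libraries had also served an earlier study. The trees were separate individuals, so the spread within a habit includes genetic differences between seedlings of 1 selfed parent. TAC1 lies on the same chromosome as the 3 genes, so a change that follows from TAC1 and one that follows from other alleles inherited along with it on Pp02 cannot be told apart for any of them.

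Levels are in TPM (transcripts set against a fixed library total), as the authors deposited them, a unit scaled to gene length and to the sum of each library. Reads recovered from these values came to between 18429259 and 23994336 per tree. TAC1 (Prupe.2G194000, Pp02 from 23233979 to 23236950) was measured at 0.802 to 1.27 TPM in the pillar trees and at 17.2 to 28.2 TPM in the standard trees, so each library matched its label. Standard tree 8 nevertheless stood apart from the other standard trees on the part of Pp02 that holds the 3 genes, as given below, and the differences of the kinase genes are given with and without this tree. The libraries of pillar trees 4 and 7 came from sequencing lane 8 and all others from lane 6, so lane 8 held pillar trees only. In RNA from whole shoot tips, fewer cells that express a gene and less RNA per cell cannot be told apart.

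Prupe.2G048700 (Pp02, minus strand, 5599931 to 5602153 of peach genome version 2, 2223 bp) was the member with the lower level in pillar trees. It was measured at 0.107, 0.292, 0.248 and 1.46 TPM in pillar trees 4, 7, 8 and 10 and at 10.9, 0.154, 3.93 and 3.93 TPM in standard trees 7, 8, 9 and 10. The standard trees other than tree 8 were therefore well above every pillar tree, while tree 8 itself fell among the lowest pillar values, and the groups overlapped. The pillar mean was 0.528 ± 0.629 TPM and the standard mean 4.73 ± 4.47 TPM (SD, with n = 4 for both), so the standard mean was 8.96-fold higher. On the scale log2(TPM + 0.5), used for all fold changes here, the difference of pillar minus standard was -1.92 with a standard error of 0.79. Without standard tree 8 it was -2.73 and the groups no longer overlapped, and within lane 6 alone it was -1.52.

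The reads behind these levels were few in the low trees. Pillar trees 4, 7 and 8 had 2, 5 and 5 reads on Prupe.2G048700 and standard tree 8 had 3, whereas pillar tree 10 had 31 and standard trees 7, 9 and 10 had 217, 79 and 82. An exact 95% Poisson interval for the 3 reads of standard tree 8 ran from 0.0317 to 0.449 TPM, and for the 31 reads of pillar tree 10 from 0.994 to 2.08 TPM. These intervals cover counting error only, since reads carry no molecular identifiers. Pillar tree 10 was thus above the other pillar trees and standard tree 8 by more than counting error and below standard trees 7, 9 and 10.

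Prupe.2G092500 (Pp02, plus strand, 14568844 to 14571663, 2820 bp) was the member whose groups were separate in all 8 trees. It was measured at 1.82, 2.30, 2.11 and 1.60 TPM in pillar trees 4, 7, 8 and 10, from 43 to 54 reads each. Among the standard trees it had 33 reads, or 1.33 TPM, in tree 8 and 0 reads in trees 7, 9 and 10. The pillar trees varied little, with a coefficient of variation of 15.9%, and standard tree 8 lay just below the lowest of them. The exact 95% Poisson intervals were 0.916 to 1.87 TPM for standard tree 8 and 1.16 to 2.16 TPM for pillar tree 10. They overlapped, so counting error alone could undo the separation of the groups. The pillar mean was 1.96 ± 0.310 TPM and the standard mean 0.333 ± 0.666 TPM (SD, with n = 4 for both), a ratio of 5.88, and the log2 difference was 1.82 with a standard error of 0.43. The log2 difference was 1.76 within lane 6, and it was 2.29 without standard tree 8, where the remaining standard trees were all at 0.

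A count of 0 allows up to 3 reads, which here is 0.113 to 0.119 TPM in standard trees 7, 9 and 10. Against the highest of these per-library limits, the measured level of the lowest pillar tree was 13.5-fold higher and the pillar mean 16.5-fold higher. These folds leave out the counting error of the pillar reads, as the exact 95% Poisson interval of pillar tree 10 starts at 1.16 TPM. By the same kind of interval, the trees at 0 reach 0.139 to 0.146 TPM, so the folds are not lower bounds. The fitted difference of this gene depends on the constant that is added before taking logs. Only the folds over the limit should be read as a size against the trees at 0.

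Prupe.2G093000 (Pp02, plus strand, 14706216 to 14708984, 2769 bp) had the highest level of the 3 genes in pillar trees. It was measured at 13.0, 6.66, 7.59 and 5.57 TPM in pillar trees 4, 7, 8 and 10 and at 0.684, 8.18, 0.440 and 0.654 TPM in standard trees 7, 8, 9 and 10. Standard tree 8 was above 3 of the 4 pillar trees, so the groups overlapped, while the other 3 standard trees were far below every pillar tree. The reads were 142 to 302 in pillar trees, 199 in standard tree 8 and 11 to 17 in the other standard trees. The pillar mean was 8.21 ± 3.30 TPM and the standard mean 2.49 ± 3.79 TPM (SD, with n = 4 for both), a ratio of 3.30. The log2 difference was 2.18 with a standard error of 0.66, it was 2.93 without standard tree 8, and it was 1.94 within lane 6.

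**Figure D1:**
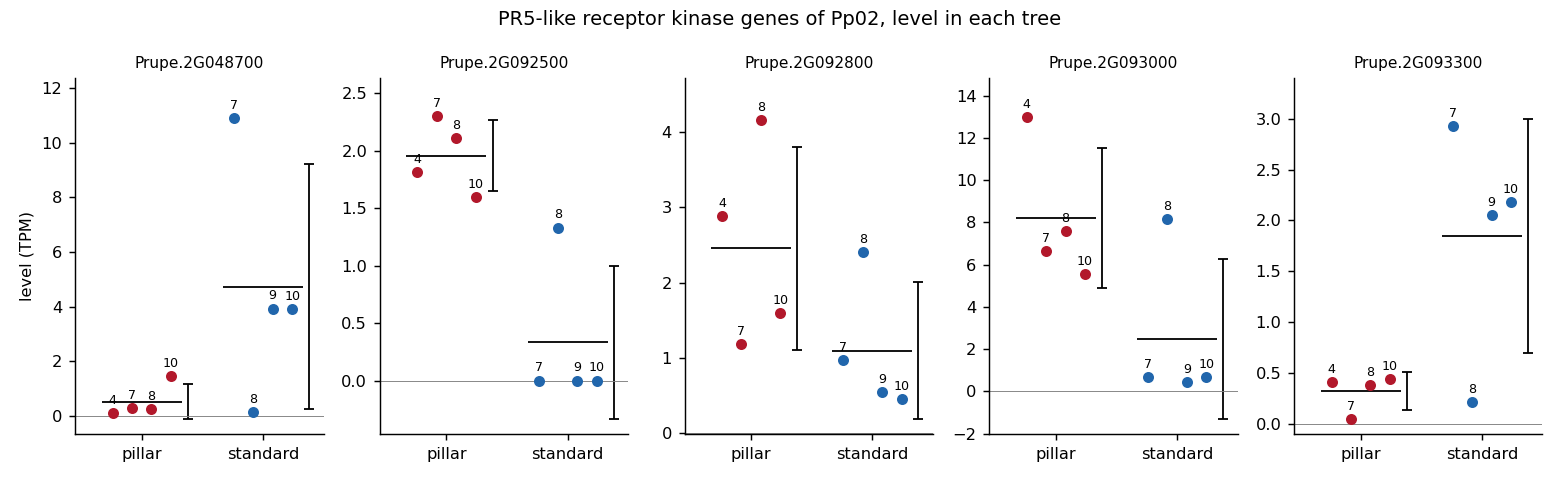
Level in TPM (vertical axes, each with its own scale) of the 5 Pp02 genes matched to PR5K, with 1 numbered point per tree, a line at the mean of each habit and a bar of 1 SD around it (n = 4 pillar, red, and 4 standard trees, blue). Standard tree 8 sits within the pillar trees or, for Prupe.2G092500, just below them, from 0.154 TPM for Prupe.2G048700 to 8.18 TPM for Prupe.2G093000, and pillar tree 10 is the highest pillar tree for Prupe.2G048700 at 1.46 TPM.

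The remaining pair of PR5K matches repeated both directions. Prupe.2G092800 (Pp02, plus strand, 14661256 to 14663896) was measured at 2.89, 1.18, 4.17 and 1.59 TPM in pillar trees 4, 7, 8 and 10 and at 0.971, 2.41, 0.545 and 0.444 TPM in standard trees 7, 8, 9 and 10, a log2 difference of 0.93 with a standard error of 0.43, or 1.27 without standard tree 8. Prupe.2G093300 (Pp02, plus strand, 14787311 to 14789899) was measured at 0.414, 0.0501, 0.383 and 0.446 TPM in pillar trees 4, 7, 8 and 10 and at 2.93, 0.220, 2.05 and 2.18 TPM in standard trees 7, 8, 9 and 10, a log2 difference of -1.33 with a standard error of 0.47, or -1.83 without standard tree 8. In each of these genes standard tree 8 lay inside the range of the pillar trees and the other standard trees lay on the far side of it. Pillar trees had 3 of the 5 matches higher and 2 lower, and the median of their log2 differences was 0.93 against -0.09 over all 20055 tested genes, those with a mean of at least 0.5 TPM. Without standard tree 8 the medians were 1.27 and -0.10.

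All 3 members, and 4 of the 5 matches, met the study's criteria in the fit made here, which are an unadjusted limma p of at most 0.05, a change over 1.5-fold, and reads averaging 5 or more within both habits. Of all tested genes 2.23% met them, 1.12% as higher and 1.11% as lower in pillar trees, and 0.12% passed a limma adjusted p of 0.05. Nothing is read from the members' share because the list was made with this contrast. The groups of 1 of the 3 members, Prupe.2G092500, did not overlap, by a gap within counting error, as for 2.93% of all tested genes whatever their gap. Without standard tree 8, all 3 members and all 5 matches had groups that did not overlap, as for 5.7% of 20038 genes. The members nearest to the minimum of 5 reads were Prupe.2G092500, with a mean of 8.25 reads in standard trees, and Prupe.2G048700, with 10.8 in pillar trees, and Prupe.2G093300 had 7.50 in pillar trees. Prupe.2G092800 was on the list but missed the p criterion in this fit.

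The genes ranked differently in the habits. In pillar trees Prupe.2G093000 was the highest at 8.21 TPM, followed by Prupe.2G092800 at 2.46 ± 1.35 TPM, Prupe.2G092500 at 1.96 TPM, Prupe.2G048700 at 0.528 TPM and Prupe.2G093300 at 0.323 ± 0.184 TPM. Prupe.2G092800 and Prupe.2G092500 differed by less than the SD of the first, as did Prupe.2G048700 and Prupe.2G093300. In standard trees the order was Prupe.2G048700 at 4.73 TPM, Prupe.2G093000 at 2.49 TPM, Prupe.2G093300 at 1.85 ± 1.15 TPM, Prupe.2G092800 at 1.09 ± 0.909 TPM and Prupe.2G092500 at 0.333 TPM. No neighbours in the standard order differed by more than the larger of their SDs. Without standard tree 8 the order changed, with Prupe.2G048700 at 6.25 TPM, Prupe.2G093300 at 2.39 TPM, Prupe.2G092800 at 0.653 TPM, Prupe.2G093000 at 0.593 TPM and Prupe.2G092500 at 0.

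The read assignment limits what each of these levels stands for. The authors let a read match up to 10 places, so reads from near-identical kinase copies could have been shared between genes, and whether reads were counted by strand is not given in the sources used here. Prupe.2G048700 lies over a RefSeq pseudogene, LOC18784685, that covers 97.8% of it, and Prupe.2G093000 over another, LOC109947729, that covers 99.2%. Prupe.2G092500 lies over LOC109947531, which RefSeq annotates as protein coding and which covers 98.1% of it. Over the 8 chromosomes, 4.40% of 26811 genes were best overlapped by a RefSeq pseudogene. For 2 of the 3 members the reads were therefore assigned to a locus that RefSeq does not model as an intact gene, a difference between annotations that was not resolved here.

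The opposite directions did not map to separate parts of Pp02. Prupe.2G048700 lies 8967 kb below Prupe.2G092500 and 17.6 Mb from TAC1, while Prupe.2G092500 and Prupe.2G093000 lie 8.67 and 8.53 Mb from TAC1. On these 3 genes alone, the lower one is the farther from TAC1 and the higher ones the nearer. The 4 matches from Prupe.2G092500 to Prupe.2G093300, however, all lie on the plus strand within 221 kb, and 3 of them were higher and the last, Prupe.2G093300, was lower in pillar trees. The gaps between consecutive matches of this cluster were 89.6, 42.3 and 78.3 kb, so the change of direction from 2.18 at Prupe.2G093000 to -1.33 at Prupe.2G093300 fell within 78.3 kb.

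The cluster interval holds 9 genes of the table, and its 4 genes above the minimum mean were exactly the 4 PR5K matches. The fifth listed gene in it, Prupe.2G092900, annotated as a glycosyl hydrolase, was below the minimum mean. It was measured at 0.910, 0.623, 1.06 and 0.630 TPM in pillar trees 4, 7, 8 and 10 and at 0, 0.608, 0.133 and 0.0349 TPM in standard trees 7, 8, 9 and 10. Standard tree 8 again carried a level close to that of the pillar trees.

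**Figure D2:**
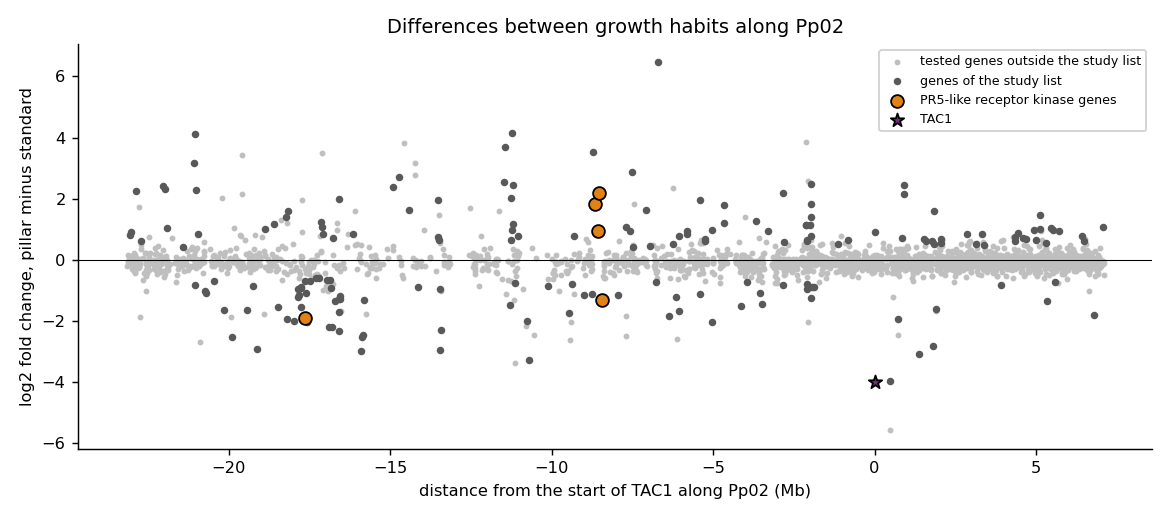
Log2 difference of pillar minus standard trees (vertical axis) for every tested gene of Pp02 by its distance from the start of TAC1 in Mb (horizontal axis), with genes of the study's list in dark grey, the others in light grey, the 5 PR5K matches in orange and TAC1 as a star. The single match 17.6 Mb below TAC1 is at -1.92, and the 4 matches about 8.5 Mb below it range from -1.33 to 2.18.

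Genes higher and genes lower in pillar trees occurred along all of Pp02. From 0 to 10 Mb, which holds Prupe.2G048700, 33 of 493 tested genes were over 2-fold higher and 39 over 2-fold lower in pillar trees. From 10 to 17 Mb, which holds the cluster, 17 of 257 were over 2-fold higher and 20 lower. From 17 to 31 Mb, which holds TAC1, 22 of 1685 were over 2-fold higher and 23 lower. Over all chromosomes 2.05% of tested genes were over 2-fold apart in either direction.

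The nearest neighbours of Prupe.2G048700 were mostly lower in pillar trees, by less than the kinase gene. Prupe.2G048600, which ends 0.28 kb below it, had a log2 difference of -0.31, and Prupe.2G049000 and Prupe.2G049200 above it had -0.44 and -0.38. Prupe.2G048000 was at 0.09. These 4 genes are outside the study's list and had limma adjusted p from 0.902 to 0.907, a threshold that none of the PR5K matches passed either, so it does not set the neighbours apart from the kinase gene. The groups of Prupe.2G049000 did not overlap in all 8 trees, at 2.70 to 3.60 TPM in pillar and 3.75 to 5.04 TPM in standard trees, and standard tree 8 was at 4.06 TPM with its own habit. The listed neighbours were Prupe.2G048500 at -0.69 and Prupe.2G048900 at -1.10. Prupe.2G048900, matched to the Arabidopsis flagellin receptor gene FLS2, had no reads in pillar trees 4, 7 and 8 nor in standard tree 8, and was at 0.388 TPM in pillar tree 10 and at 0.754 to 1.65 TPM in the other standard trees. Its high and low trees were those of Prupe.2G048700, 13.7 kb away.

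The tested neighbours of the cluster outside the study's list were all lower in pillar trees, by less than 2-fold. Below Prupe.2G092500, Prupe.2G091900 and Prupe.2G092100 had log2 differences of -0.30 and -0.15, and above the last match, Prupe.2G093500 and Prupe.2G093700 had -0.54 and -0.59, with a limma adjusted p of 0.902 for all 4. These directions are that of Prupe.2G093300, the groups of Prupe.2G093500 did not overlap in all 8 trees, and Prupe.2G093700 met the study's criteria in this fit. Prupe.2G092200, a listed gene without a description that starts at 14503990, was measured at 11.2, 9.95, 9.58 and 24.1 TPM in pillar trees 4, 7, 8 and 10. In standard trees 7, 8, 9 and 10 it was measured at 0, 11.3, 0 and 0.0851 TPM, a log2 difference of 3.53, or 4.65 without standard tree 8. As for Prupe.2G092500, 63.6 kb away, standard tree 8 alone among the standard trees expressed it at the level of the pillar trees.

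In a window of 0.5 Mb on each side, the surroundings of Prupe.2G048700 were shifted toward lower levels in pillar trees. Over all tested genes the median log2 difference was -0.09, so lower genes outnumbered higher ones in general, by a share that was not counted. Of the 53 other tested genes in the window, 14 were on the study's list. Among the 53, 44 were lower and 9 higher, with a median of -0.35, and 7 were over 2-fold lower and 1 over 2-fold higher. For the 39 of them outside the study's list, which by that fact had not passed the study's selection, the median was -0.17 with 30 lower and 9 higher. Of these 39, 0 were over 2-fold lower and 1 over 2-fold higher, so the 7 over 2-fold lower genes were all listed on this contrast. The smallest limma adjusted p of the 39 was 0.768. Around Prupe.2G092500 the 35 tested genes outside the list had a median of -0.07, close to the -0.09 of all genes, with 25 lower and 10 higher and a smallest limma adjusted p of 0.902. Around Prupe.2G093000, whose window largely overlaps the previous one, 39 such genes had a median of -0.09, with 29 lower and 10 higher.

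To describe where single trees stood, the level of each tree on the log2 scale was placed between the mean of the standard trees, set at 0, and the mean of the pillar trees, set at 1, with the tree left out of its own mean. Standard tree 8 was at 1.18 for Prupe.2G048700, 0.82 for Prupe.2G092500 and 1.02 for Prupe.2G093000, and at 1.07 and 1.09 for Prupe.2G092800 and Prupe.2G093300. It thus had pillar-like levels at genes that were higher and at genes that were lower in pillar trees. Pillar tree 10 was at 0.36 for Prupe.2G048700, nearer to the mean of all 4 standard trees, but at 0.85 and 0.74 for Prupe.2G092500 and Prupe.2G093000. That mean includes the pillar-like standard tree 8, so a tree between the groups is placed lower than against standard trees 7, 9 and 10 alone. The place of pillar tree 10 without standard tree 8 was not worked out. Pillar tree 10 was at 0.51 for Prupe.2G092800 and at 0.78 for Prupe.2G093300.

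Other genes of these stretches were placed in the same way, with the 5 PR5K matches left out. Over 95 genes from 0 to 10 Mb that were over 2-fold apart without it, standard tree 8 had a median place of 1.14, and 93.7% were nearer to the pillar mean. From 10 to 17 Mb its median was 0.91 over 44 genes, from 17 to 31 Mb it was 0.13 over 52 genes, and on the other chromosomes it was 0.43 over 309 genes. The median place of standard tree 8 was therefore near the pillar mean along the stretches with the 5 PR5K matches. The stretch with TAC1 was mixed. In its 1 Mb windows from 17 to 21 Mb, of 2 to 7 genes each, the medians of standard tree 8 were 0.52, 0.75, 0.55 and 0.71. They were -0.03 over 12 genes from 21 to 22 Mb and 0.01 over 6 genes from 23 to 24 Mb, the window that holds TAC1. With all genes of the study's list left out, the medians were 1.16 over 37 genes, 0.99 over 19 genes and 0.27 over 15 genes for the 3 stretches of Pp02, and 0.87 over 159 genes on the other chromosomes. The list was made with standard tree 8 in its group, so leaving it out favours genes at which this tree stood with the pillar trees. The median on the other chromosomes rose from 0.43 to 0.87 in this way, so these values are no independent check. Pillar tree 10 had a median of 0.44 over 84 genes from 0 to 10 Mb, 0.92 over 38 genes from 10 to 17 Mb and 0.92 over 52 genes from 17 to 31 Mb. On the other chromosomes its median was 0.49 over 327 genes. With the PR5K matches kept in, pillar trees 4, 7 and 8 had medians of 1.14, 1.19 and 1.14 from 0 to 10 Mb. Off Pp02 they were at 0.30, 0.29 and 0.25, so a middling place there was not particular to pillar tree 10. From 0 to 10 Mb, pillar tree 10 was the only pillar tree with a median nearer to the standard mean. For pillar trees that mean includes standard tree 8, and their medians without it were not worked out. Standard trees 7, 9 and 10 were at -0.66, -0.45 and -0.61 from 0 to 10 Mb. Neighbouring genes are not independent, and the stretches were drawn after their values were known, so no test is given.

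**Figure D3:**
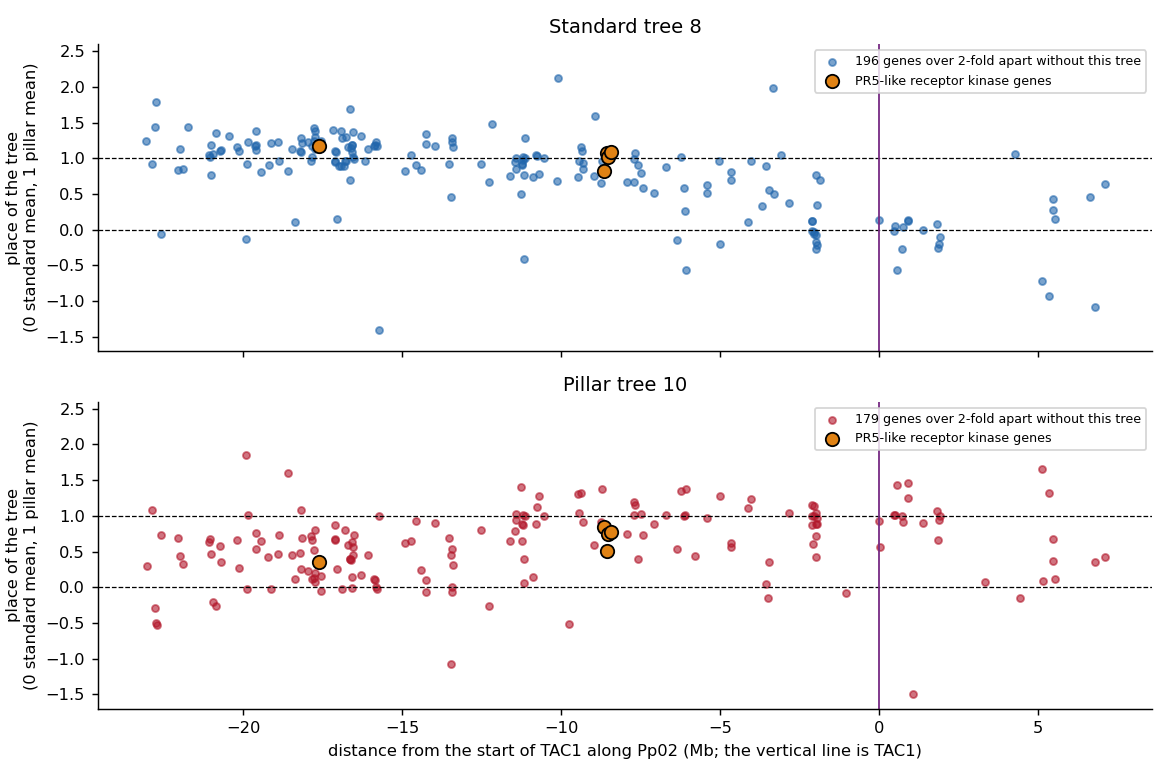
Place of standard tree 8 (top) and pillar tree 10 (bottom) between the standard mean (0) and the pillar mean (1) of the other trees, on the vertical axis, for Pp02 genes over 2-fold apart without that tree, by distance from the start of TAC1 in Mb on the horizontal axis. The orange points are the 5 PR5K matches, at 0.82 to 1.18 for standard tree 8, and for pillar tree 10 the one farthest from TAC1 is at 0.36 and the 4 of the cluster are at 0.51 to 0.85. The standard mean in the bottom panel includes standard tree 8.

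Within 0.5 Mb of Prupe.2G048700, standard tree 8 was nearer to the pillar mean for 13 of 13 genes over 2-fold apart, with a median place of 1.22. Pillar tree 10 was nearer to the pillar mean for 4 of 12 such genes, with a median of 0.21, against a standard mean that includes standard tree 8. Most of these genes were on the study's list. Outside it, standard tree 8 was nearer to the pillar mean for 3 of 3 genes and pillar tree 10 for 1 of 2. Within 0.5 Mb of Prupe.2G092500, with the PR5K matches left out, standard tree 8 was nearer to the pillar mean for 4 of 4 genes and pillar tree 10 for 3 of 3. These are few genes, and outside the study's list only 1 was over 2-fold apart there without standard tree 8 and 0 without pillar tree 10. Closer neighbours with smaller differences did not all follow, as Prupe.2G049000 had standard tree 8 at a place of 0.29 and pillar tree 10 at 1.04.

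The genes whose pattern over the 8 trees was most like that of a member also lay mostly on Pp02. By Pearson's r on log2(TPM + 0.5), given as a description because the trees fall into separate clusters, the genes most like Prupe.2G048700 were Prupe.2G046800 (r = 0.99, 0.175 Mb away), the TIR-NBS-LRR disease resistance gene Prupe.2G055600 (r = 0.99) and Prupe.2G048900 (r = 0.98). Prupe.2G046800 is outside the study's list and was measured at 6.62, 7.31, 6.63 and 10.8 TPM in pillar trees 4, 7, 8 and 10 and at 17.5, 6.17, 12.6 and 14.0 TPM in standard trees 7, 8, 9 and 10. For Prupe.2G092500 they were Prupe.2G077800, matched to an ascorbate oxidase, Prupe.2G076700, matched to a leucine-rich repeat receptor kinase, and Prupe.2G101400, matched to a glutathione S-transferase, each with r = 0.99 and within 2.80 Mb. RefSeq has a long non-coding RNA, LOC109947219, over 100% of Prupe.2G101400. For Prupe.2G093000 the most alike genes were the TIR-NBS-LRR gene Prupe.2G057600, Prupe.2G033900 and the adaptin family gene Prupe.2G055800, each with r = 0.99 and between 7.63 and 11.1 Mb away. All 9 genes are on Pp02, where 12.1% of the tested genes lie.

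Of the 50 genes most like each member, 40, 42 and 41 were on Pp02 for Prupe.2G048700, Prupe.2G092500 and Prupe.2G093000. Of the 50 genes with the most opposite pattern, 37, 40 and 41 were on Pp02. Genes like and genes opposite to each kinase gene were thus mostly on the same chromosome, and without standard tree 8 the counts were 35, 38 and 36 alike and 33, 40 and 33 opposite. Prupe.2G092500 and Prupe.2G093000 had an r of 0.96 with each other and of -0.91 and -0.93 with Prupe.2G048700. The lower gene of the cluster, Prupe.2G093300, had an r of 0.93 with the distant Prupe.2G048700 and of -0.96 and -0.92 with its neighbours Prupe.2G092500 and Prupe.2G093000, or 0.92, -0.97 and -0.91 over the 7 trees without standard tree 8.

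The study's list also holds 5 Pp02 genes matched to the related Arabidopsis receptor-like kinases At1g66910, At1g66920 or At1g67000, named there as members of the protein kinase superfamily. Pillar trees had 4 of these lower and 1 higher, the median of their log2 differences was -0.91 (-1.32 without standard tree 8), and like the PR5K matches they were selected on this contrast. Prupe.2G047500, which ends 121 kb below Prupe.2G048700, was measured at 0.616, 1.97, 2.20 and 5.23 TPM in pillar trees 4, 7, 8 and 10 and at 12.6, 1.09, 10.6 and 13.0 TPM in standard trees 7, 8, 9 and 10. Its neighbour Prupe.2G047400 was measured at 3.84, 7.80, 4.86 and 11.2 TPM in pillar trees and at 20.1, 5.02, 12.5 and 18.4 TPM in standard trees, in the same order of trees. Both shared the pattern of Prupe.2G048700, with standard tree 8 low and pillar tree 10 the highest pillar tree. RefSeq models these neighbours as 1 gene, LOC18785245, so their shared pattern is not separate evidence. The counts and the median of the 5 genes above nevertheless take them as separate genes.

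The other 3 kinase genes lie between 13763825 and 13931021, below the PR5K cluster. Prupe.2G087200 was measured at 2.13, 2.95, 4.65 and 2.04 TPM in pillar trees 4, 7, 8 and 10 and at 16.5, 4.34, 12.9 and 12.7 TPM in standard trees 7, 8, 9 and 10, a log2 difference of -1.74 with a standard error of 0.40, or -2.13 without standard tree 8. Prupe.2G087900 had a log2 difference of -0.81 and Prupe.2G088400 one of 0.79, so both directions occurred in this group too. Prupe.2G088400, the only higher gene of the group, lies over a RefSeq transcribed pseudogene, LOC18785710, that covers 76.1% of it. Pillar tree 10 was at a place of 1.31 for Prupe.2G087200, against 0.20 for Prupe.2G047500 and 0.12 for Prupe.2G047400, each set against a standard mean that includes standard tree 8. For all 5 kinase genes the groups overlapped with all trees and did not overlap without standard tree 8, where 2.93% and 5.7% of all tested genes had groups that did not overlap, and nothing is read from this as the genes were listed on this contrast.

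**Figure D4:**
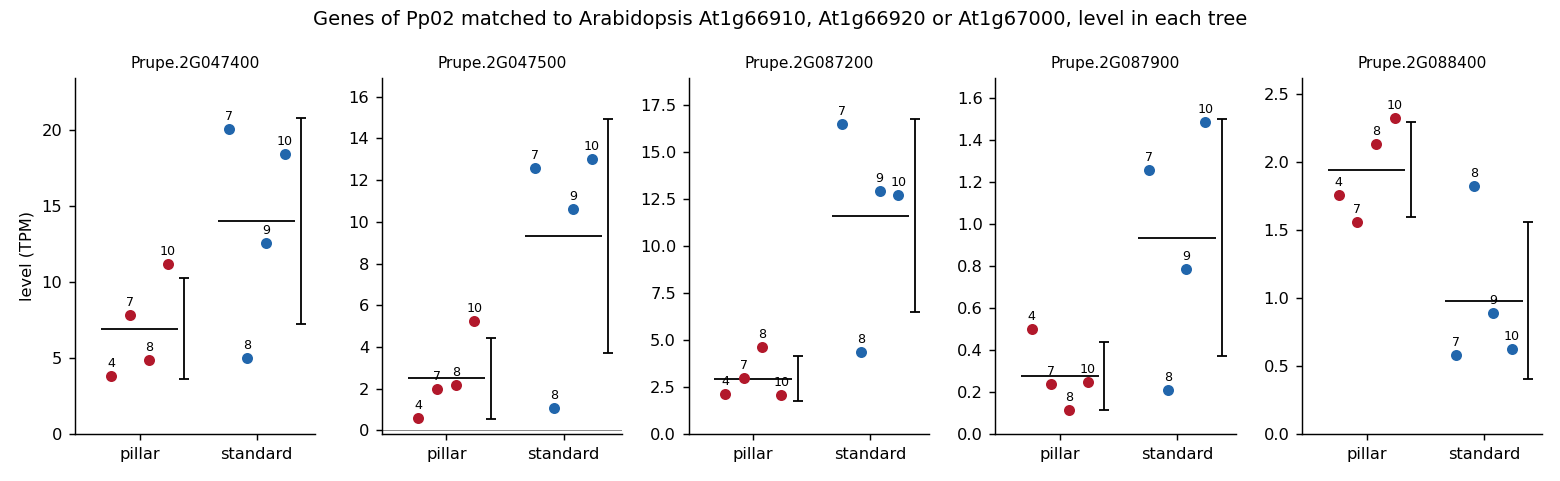
Level in TPM (vertical axes, each with its own scale) of the 5 listed Pp02 genes matched to At1g66910, At1g66920 or At1g67000, with 1 numbered point per tree, a line at the mean of each habit and a bar of 1 SD around it (n = 4 pillar, red, and 4 standard trees, blue). Standard tree 8 lies with the pillar trees in each panel, for example at 1.09 TPM for Prupe.2G047500 where the other standard trees are at 10.6 to 13.0 TPM.

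The study files the PR5K matches with its pathogenesis-related genes, a category of 11 listed genes. Pillar trees had 7 of the 11 higher and 4 lower, the median of their log2 differences was 0.66 (0.69 without standard tree 8), and the members Prupe.2G093000 and Prupe.2G048700 were its largest and smallest, at 2.18 and -1.92. Once standard tree 8 was left out, the groups of the 5 PR5K matches did not overlap and those of the other 6 genes of the category did, against 5.7% of all tested genes without overlap. The 5 kinase matches of Pp02 did not overlap either. Nothing is read from these counts, because standard tree 8 was singled out by its levels on the stretches that hold these matches. The thaumatin genes of the category, Prupe.3G143900 and its neighbour Prupe.3G144000 on Pp03, also went in opposite directions, at 1.68 and -1.31. Prupe.3G143900 was measured at 67.9, 15.7, 5.28 and 14.7 TPM in pillar trees 4, 7, 8 and 10 and at 14.3, 7.85, 1.40 and 3.50 TPM in standard trees 7, 8, 9 and 10, with standard tree 8 inside the range of the other standard trees. The PR5 gene Prupe.7G050700, a secreted thaumatin-like protein, ranged from 1.35 to 138 TPM in pillar and from 0.774 to 40.3 TPM in standard trees. Its levels in the habits overlapped widely.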

How the data were processed

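Per the labels and the study's methods, shoot-tip RNA of 8 trees was sequenced as single 50-bp reads, 1 library per tree. The authors removed shorter reads, aligned the rest with CLC's RNA-seq tool (peach genome version 2), and deposited TPM per gene and tree. RPKM is the expression value named in the methods, yet every deposited column sums to 1000000 TPM. Gene lengths cover whole gene regions, introns included. The table has a second entry for each of 26873 genes, 0 in every tree and not used. The authors' comparison columns (fold change, p-value, FDR, Bonferroni and the larger group mean) were not used.

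TPM times gene length moves in equal steps of 1 read within a tree. With a tolerance of 0.05 reads, 100% of nonzero values under 10000 reads were whole, and the recovered reads gave depth, Poisson intervals (scipy 1.17.1), RPKM and a voom alternative. No libraries were duplicates, since even the most alike pair differed by over 3 Poisson SD at 28.9% of 18771 genes.

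Pillar and standard trees were compared with limma 3.58.1 (R 4.3.3, lmFit and eBayes with trend) on log2(TPM + 0.5). The 20055 genes whose mean reached 0.5 TPM were tested, and p-values were adjusted by Benjamini-Hochberg over them. The fit was checked on simulated data with 200 changed genes, at 2 settings of the spread between trees beyond counting error (dispersion). At a dispersion of 0.05 it recovered 99.5% of them with 17 false calls. At 0.2 it recovered 65% with 7 false calls, so real changes can be missed where trees vary widely. Summaries used Python 3.11.15, pandas 2.3.3 and numpy 2.4.6. Genes of the study's list are given no p-value, and whether they met the study's criteria in this fit is a description.

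The members and lists were chosen with earlier results of these data known. Named genes were the members, the other PR5K matches, TAC1, the 3 nearest tested genes on each side, the 3 most alike genes by Pearson's r, and the largest and smallest change of the pathogenesis-related category. The 5 kinase matches, the thaumatin and PR5 genes and Prupe.2G092900 were described after their values were seen. RefSeq symbols come from assembly Prunus_persica_NCBIv2, matched by overlap for 24059 of 26811 genes on the 8 chromosomes (median gap of 85 bp between starts), and none of its coordinates are given. The reference table used here holds no product names, so the planned wider receptor kinase family, the thaumatin list by product and the tissue markers were not analysed here.

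Alternatives were pseudocounts of 0.1 and 1 TPM, no filter, a minimum of 5 reads, upper quartile and RPKM scaling, each tree left out, the tree number as a block, lane 6 only, voom on recovered reads and, added after seeing the data, a ratio of means with nothing added. The tree numbers name separate trees. Deviations from the group means of same-numbered trees correlated at 0.29, 0.10 and -0.09 for numbers 7, 8 and 10, so the numbers were not taken as pairs.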

Additional observations from a re-analysis of the deposited data

Results flagged for a closer look

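In each member, 1 tree stood far from the other 3 of its habit, by a gap to the nearest tree that was large against the range of the group (Dixon's criterion at 95%). For Prupe.2G048700 it was pillar tree 10, the highest pillar tree at 1.46 TPM, with a gap of 0.86 of the range. For Prupe.2G092500 it was standard tree 8, at 1.33 TPM beside 3 trees at 0, so that the gap was the whole range. Beside 3 tied trees any level above 0 gives this gap, so nothing is read from the criterion for this gene. For Prupe.2G093000 it was again standard tree 8, at 8.18 TPM, with a gap of 0.97 of the range. Chance gives such a gap in about 1 in 20 groups of normally distributed values, a rate that does not hold for the tied group of Prupe.2G092500. These 3 genes also lie on 1 chromosome and were chosen with their values known.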

How the results depend on the processing

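No alternative changed the direction of a member. Leaving out 1 tree gave log2 differences from -2.73 (without standard tree 8) to -1.35 for Prupe.2G048700, from 1.66 to 2.29 for Prupe.2G092500 and from 1.86 to 2.93 for Prupe.2G093000, both of these highest without standard tree 8. Only Prupe.2G092500 moved by more than its spread, to 3.39 with a pseudocount of 0.1 TPM, 1.11 on RPKM, 5.19 with voom and 2.56 as a ratio of means with nothing added. With 3 standard trees at 0, the value of this gene rests on the constant added. With the tree number as a replicate block the differences were -1.61, 1.69 and 1.63 for Prupe.2G048700, Prupe.2G092500 and Prupe.2G093000. Over all genes, limma called 24 at an adjusted p under 0.05, 17 to 85 with 1 tree left out (85 without standard tree 8) and 6 with the block. The study's criteria were met by 447 genes, 350 to 732 with 1 tree left out (732 without pillar tree 4), 1098 with the block and 1196 in lane 6 alone. Of the 447, 224 were higher and 223 lower, against 269 and 179 with upper quartile scaling, 197 and 535 without pillar tree 4, 252 and 846 with the block, and 203 and 993 in lane 6 alone. The cause was not tested. No alternative was run for the wider kinase family. Depth limits the low trees, with 2 to 5 reads on Prupe.2G048700 in 4 trees and 0 on Prupe.2G092500 in 3.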
